A study of Drosophila melanogaster with 5 samples.

Results

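The peaks described here are the 216 low-numbered sites of a list of 709 MSL2 binding sites in Drosophila melanogaster S2 cells, a share of 30.5%. They were chosen by the number that each peak's name carries, with a number of 300 or lower. The study profiled binding by CUT&RUN, in which a nuclease tethered to an antibody releases the DNA around the antibody's target for sequencing. S2 is an established cell line of embryonic origin with a male-like dosage compensation state. There were 3 libraries from S2 cells incubated with rabbit serum against MSL2, and 2 control libraries, for which the protocol names pre-immune serum and the labels give the target as PPI. The labels give no genotype, transgene or further treatment for either group, and with no expression values the cell line was not checked against markers. One peak list was analysed for the whole series. It holds positions and no value per library, so no replicate error can be given for any value below, and which libraries entered the list is not stated.

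MSL2 is a subunit of the male-specific lethal complex, which binds the single male X chromosome and raises the transcription of its genes. The complex also holds MSL1, MSL3, the helicase MLE, the histone acetyltransferase MOF and the noncoding RNAs roX1 and roX2. It is known to bind first at a limited set of high-affinity sites on X, often with GA-rich sequence elements, and to spread from them to nearby active genes.

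The header of the list counts 7890306 anti-MSL2 tags (aligned read positions) and gives no tag count per peak. All 709 peaks lay on X and were 151 bp wide, and the low-numbered peaks covered 32616 bp in all. Their numbers ran between 19 and 300, and 84 of the numbers up to 300 belonged to no peak of the list. The header does not say what the number stands for, so low-numbered peaks are not called strong peaks here. All low-numbered peaks stood within the first 236 places of the list, among 20 peaks with a higher number. At the threshold, the last peaks included were numbers 297 (in MKP-4), 298 (in Usp2) and 300 (in dome). The first ones left out were numbers 301 (in asRNA:CR43864), 302 (in His3.3B) and 303 (in nej).

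The genes at the head of the numbering comprised both X-linked roX genes and genes of varied function. Coordinates are those of build dm6 (Release 6). The lowest number, 19, belonged to a peak at chrX:11580217-11580367 in lncRNA:roX2. Number 24 lay at chrX:3861298-3861448 in lncRNA:roX1, 1324 bp from the nearer end of that gene. Next came number 28 in Paics, an enzyme of purine synthesis, at chrX:12760501-12760651, with its midpoint 41 bp from a gene end. Number 30 lay in crm (cramped), a chromatin protein of the Polycomb group, at chrX:2734556-2734706. The peak with number 31 had the most isolated position relative to genes of all low-numbered peaks, 1204 bp from the nearest gene, CG15747, and 38957 bp from the nearest other listed peak. Number 32 lay near the middle of Smr, which encodes a corepressor, at chrX:12716088-12716238.

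Of the 20 lowest-numbered peaks, 18 had their midpoint inside a gene. The exceptions were number 31 and number 38, which lay 155 bp from sta, the gene of a small-subunit ribosomal protein. Several of the host genes act in the nucleus. They include Nup153 (number 36), a nuclear pore protein, and fs(1)h (number 50), a bromodomain protein. The helicase-related gene sno (number 45) acts in Notch signalling, and e(r) (number 51) encodes a small conserved nuclear protein. Others encode signalling or structural proteins. They include the phospholipase C gene norpA (number 40) of phototransduction, the junction scaffold dlg1 (number 48), the katanin subunit kat80 (number 49) and the G-protein subunit Gbeta13F (number 55). The remaining host genes were a6 (number 46), Socs16D (number 47), CG2186 (number 56) and dtn (number 57). Number 58 lay in COX6B, a subunit of cytochrome c oxidase, and also in the overlapping gene CG18809. Distances to the nearest end of any gene varied widely among these peaks. The midpoint of number 48 in dlg1 was 12128 bp from such an end, the largest value among all low-numbered peaks, and that of number 50 in fs(1)h was 11660 bp from one.

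The first comparison asked where low-numbered peaks lie relative to genes. Inside a gene were 188 of the 216 low-numbered midpoints (87.0%, 95% Wilson interval 81.9% to 90.9%) and 356 of the 493 higher-numbered midpoints (72.2%, interval 68.1% to 76.0%). The difference of 14.8 percentage points passed Fisher's exact test, two-sided (p = 1.2e-05, adjusted p = 3.6e-05 by Benjamini-Hochberg over the 3 shares compared). When a peak that touched a gene by 1 bp was counted, the shares were 93.1% and 86.4%, a smaller difference of 6.65 percentage points (Fisher's exact test, adjusted p = 0.016). Genes that overlap made 17 low-numbered midpoints count for more than 1 gene, and 31 higher-numbered ones. Of the 28 low-numbered midpoints outside genes, 27 lay within 1000 bp of one, at a median distance of 89 bp over the 28. Higher-numbered peaks were alike in this: 135 of their 137 midpoints outside genes lay within 1000 bp, at a median of 74 bp. The 28 include numbers 79 (238 bp from Set2, a histone methyltransferase), 92 (39 bp from ND-75, a subunit of mitochondrial complex I) and 274 (31 bp from His3.3B, a histone variant gene). The interval and the test treat peaks as independent, whereas 58 low-numbered peaks lay within 5 kb of another one, so the p-values are too small. With the lowest-numbered peak of each region merged within 5 kb taken alone, the shares were 89.2% of 185 and 73.1% of 264 (Fisher's exact test, adjusted p = 7.6e-05). A region with both kinds of peak counts as low-numbered here, so the 264 are regions without any low-numbered peak.

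Low-numbered peaks were farther from gene ends in the pooled comparison. Those numbered 201 to 300 were close in this to the class numbered 301 to 600, as given by class below. Gene starts were not told apart from 3′ ends, because the gene table gives extents without strand. The median distance from the midpoint to the nearest end of any gene was 538 bp (quartiles 164 and 1334 bp) in low-numbered peaks and 265 bp (quartiles 67 and 1103 bp) in higher-numbered peaks. Within 500 bp of an end lay 103 low-numbered midpoints (47.7%, interval 41.1% to 54.3%) and 298 higher-numbered ones (60.4%, interval 56.1% to 64.7%). This difference of -12.8 percentage points passed Fisher's exact test (p = 0.0018, adjusted p = 0.0026). Peaks are again treated as independent, so the p-values are too small. With the lowest-numbered peak of each region merged within 5 kb taken alone, the shares were 44.3% of 185 and 57.2% of 264 (Fisher's exact test, adjusted p = 0.014). Within 100 bp lay 19.9% of low-numbered and 36.3% of higher-numbered midpoints. Within 1000 bp the shares were 69.0% and 73.6% and the test was not passed (Fisher's exact test, adjusted p = 0.2). More than 5 kb from any gene end lay 13 low-numbered peaks (6.02%) and 29 higher-numbered peaks (5.88%), a difference that was not tested. These 13 include the peaks in dlg1 and fs(1)h, number 65 in rudhira (8627 bp), number 82 in rdgB (8159 bp), number 229 in mei-P26 (10886 bp) and number 290 in Sec16 (6361 bp).

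**Figure D1:**
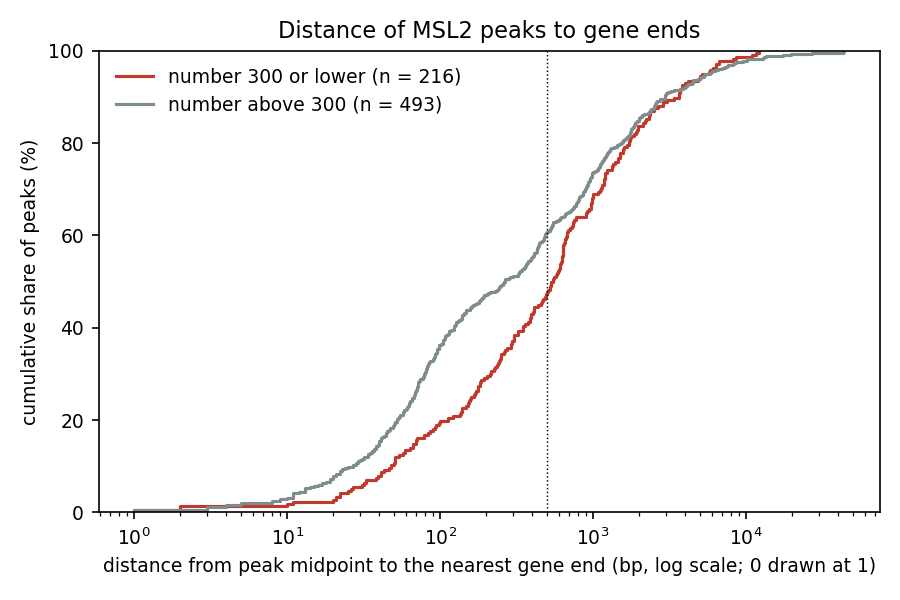
Cumulative share of peaks (%) against the distance from the peak midpoint to the nearest gene end (bp, log scale), for the 216 low-numbered peaks (red) and the 493 higher-numbered peaks (grey), with a dotted line at 500 bp. The red curve lies to the right of the grey one below about the 1000 bp mark, with medians of 538 bp and 265 bp, and the curves meet beyond it.

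The same measures were also read within the low-numbered peaks, by class of number. The share inside a gene was 90.0% in the 50 peaks numbered up to 100, 87.1% in the 85 numbered 101 to 200 and 85.2% in the 81 numbered 201 to 300. Beyond the threshold it was 74.0% in the 208 peaks numbered 301 to 600. Near a gene end, within 500 bp, lay 38.0%, 44.7% and 56.8% of peaks in the 3 low-numbered classes, by rising number, and 56.2% in the class numbered 301 to 600. The intervals of neighbouring classes overlap for both shares, and differences between classes were not tested.

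**Figure D2:**
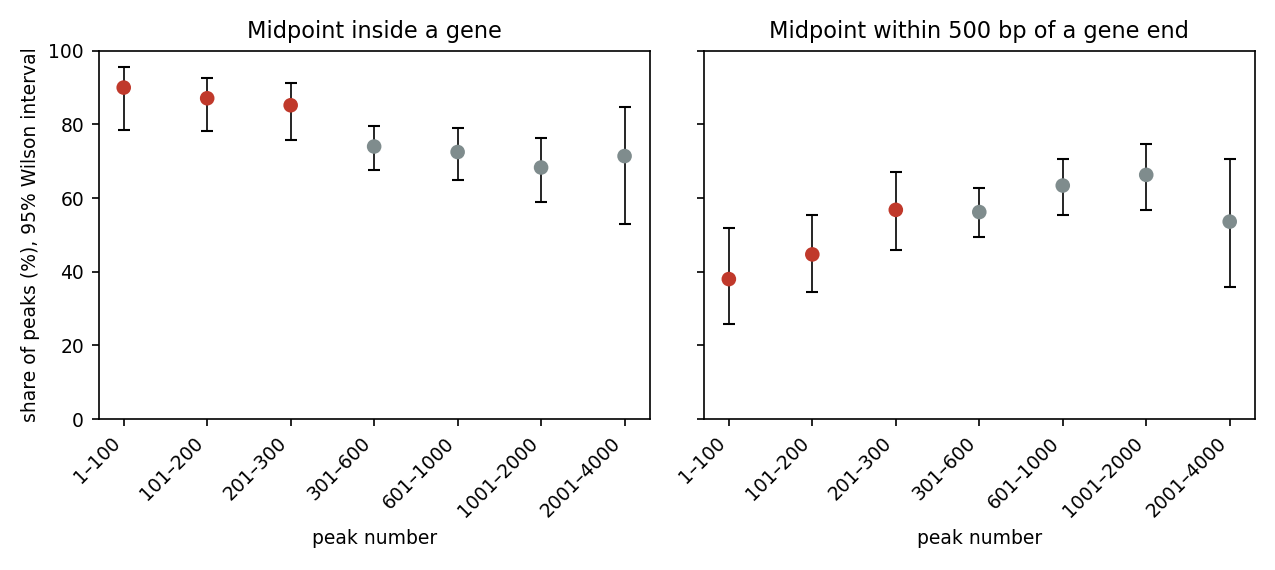
Share of peaks (%) with the midpoint inside a gene (left) and within 500 bp of a gene end (right), by class of peak number, with 95% Wilson intervals that cover counting error alone; red points are classes up to 300 and grey points classes above it. The red points lie between 85.2% and 90.0% on the left, and between 38.0% and 56.8% on the right.

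The next measure was the spread of the low-numbered peaks along X. They ran from chrX:654295-654445 in Hmt4-20, a histone methyltransferase gene, to chrX:23100280-23100430, a span of 22.4 Mb with 9.62 peaks per Mb. The median distance between consecutive low-numbered midpoints was 49163 bp (95% binomial interval of the median 29049 to 72412 bp), with quartiles of 12470 and 143689 bp and a mean of 104400 bp. The median was thus below the mean, with many short and a few very long distances. Among the 215 distances, 13 were at most 1 kb, 48 at most 10 kb and 31 more than 200 kb.

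Whole bins of 1 Mb, 23 in all, held 9.3 ± 4.68 low-numbered and 21.3 ± 10.8 higher-numbered peaks each (SD over bins). The most were in the bin between 2 and 3 Mb, with 20 low-numbered and 33 higher-numbered peaks. The fewest were between 14 and 15 Mb, with 1 low-numbered peak, in CG14408, and 9 higher-numbered ones. The bins differed in their make-up. Low-numbered peaks made up 6.9% of the 29 peaks in the first Mb, 50.0% of the 26 between 21 and 22 Mb and 55.6% of the 9 between 3 and 4 Mb. The bin between 11 and 12 Mb, which held the most peaks of the list, 61, had 12 low-numbered ones. Across the 23 bins, the counts of low- and higher-numbered peaks had a Pearson r of 0.543 and a Spearman rho of 0.549. The bins share the gene density of X, with which the low-numbered count had a Pearson r of 0.449, so both values are descriptions.

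**Figure D3:**
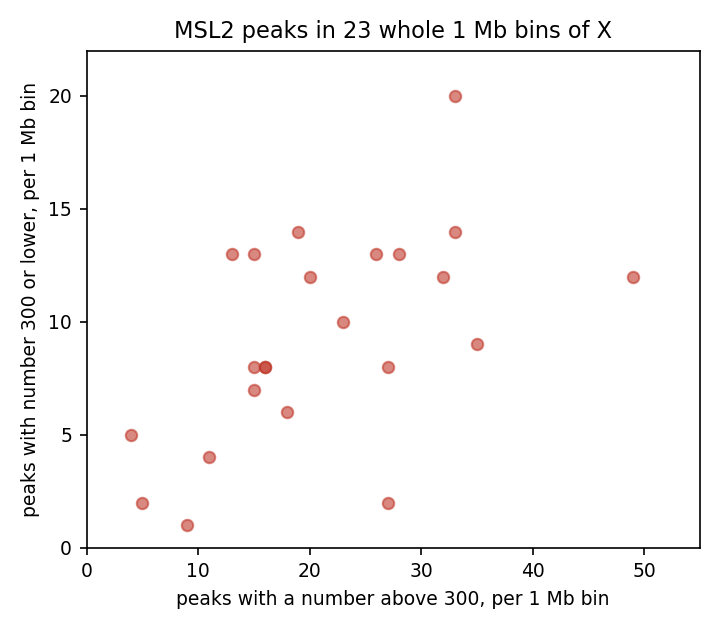
Number of low-numbered peaks against the number of higher-numbered peaks in each of 23 whole bins of 1 Mb of X, 1 point per bin (darker where points coincide). The bin with the most low-numbered peaks has 20, beside 33 higher-numbered ones, and the bin with the fewest has 1, beside 9.

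Long stretches of X held no low-numbered peak. Of the distances between consecutive ones, 6 exceeded 500 kb. The longest, 1099222 bp, ran from number 171 in the overlapping genes bbx and waw to number 298 in Usp2, a ubiquitin protease gene, and held 5 higher-numbered peaks. The next, 1046494 bp, ran from number 30 in crm to number 267 in Tlk, a protein kinase gene, and held 2. This stretch spans the Notch gene N and the cAMP phosphodiesterase gene dnc, neither of which held a listed peak. The third, 831653 bp, ran from number 200 in ben, a ubiquitin-conjugating enzyme gene, to number 64 in CG14408, and held 9.

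Elsewhere low-numbered peaks came in groups. Joining those within 20 kb left 142 groups, of which 98 were single peaks, 26 were pairs and 18 held 3 or more. The largest held 8 peaks over 61046 bp, at chrX:1862081-1923126, in Gcna, MED18 (a Mediator subunit gene), CG14818, Coa8, arm (which encodes beta-catenin), Edem1 and Ocrl (a phosphoinositide phosphatase gene). Between them lay 4 higher-numbered peaks. A group of 6 covered 56146 bp at chrX:6231984-6288129, in or beside dtn, CG14445, schlank (ceramide synthase), Ubi-p5E (ubiquitin) and wuho. A group of 5 covered 23788 bp at chrX:21316031-21339818, in or beside CG1801, Rpt6 (a proteasome ATPase gene), SLIRP1, CG1486, tty and fliI (an actin-binding protein gene). These groups were named after their values were seen. At a joining distance of 5 kb the largest groups held 3 peaks. There were 2 of these, in CG14818 and Coa8 and in lncRNA:roX2. The closest low-numbered peaks were numbers 153 and 166 in Mnr, 449 bp apart.

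Some higher-numbered peaks lay near low-numbered ones. A low-numbered peak was within 5 kb of 94 of the 493 higher-numbered peaks (19.1%). The same held for 58 of the 216 low-numbered peaks (26.9%), a difference that was not tested. Another listed peak of any number was within 5 kb of 119 low-numbered peaks (55.1%, interval 48.4% to 61.6%) and of 318 higher-numbered peaks (64.5%, interval 60.2% to 68.6%). The difference of -9.41 percentage points passed Fisher's exact test (p = 0.019, adjusted p = 0.019). It did not pass with numbers up to 400 taken as low, where the shares were 61.0% and 62.1% (adjusted p = 0.81), nor with a distance of 1 kb (adjusted p = 0.078) or 20 kb (adjusted p = 0.11), each by Fisher's exact test. Closeness counts for both peaks of a pair, so the independence of peaks that these tests assume is not met. The share also varied by class of number on both sides of the threshold. It was 40.0% in peaks numbered up to 100, 62.4% in those numbered 101 to 200 and 56.8% in those numbered 201 to 300. Among higher-numbered peaks it was 73.1% in those numbered 301 to 600, 70.6% in those numbered 601 to 1000, 48.1% in those numbered 1001 to 2000 and 28.6% in the 28 numbered above 2000. The pooled share of higher-numbered peaks thus combines classes above and below the 55.1% of low-numbered peaks. The nearest listed neighbour of a low-numbered peak was itself low-numbered in 72 of 216 cases. Low-numbered peaks make up 30.5% of the list, so this count is near that background. The median distance from a low-numbered peak to the nearest low-numbered one was 15999 bp, and that to the nearest listed peak of any number 4289 bp.

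**Figure D4:**
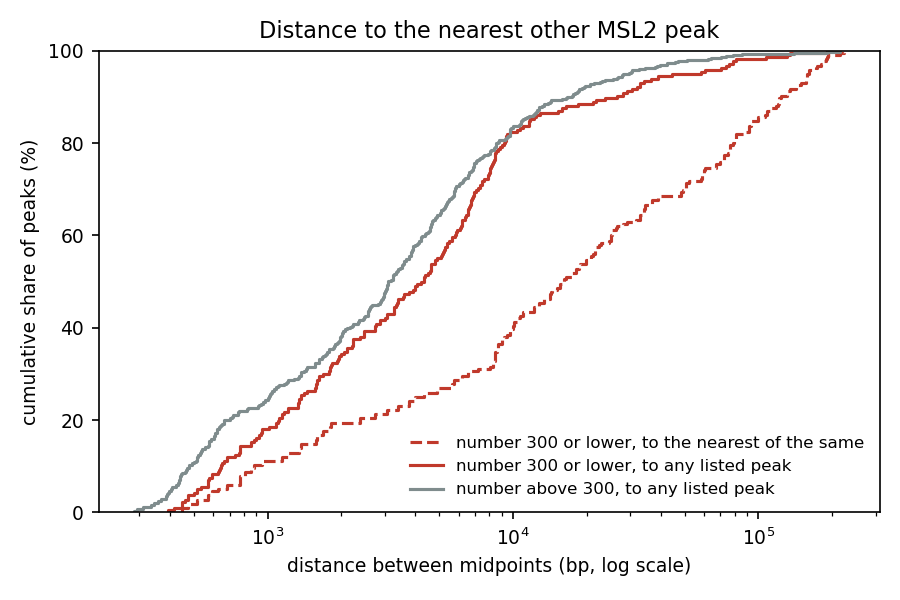
Cumulative share of peaks (%) against the distance to the nearest other midpoint (bp, log scale): low-numbered peaks to the nearest low-numbered peak (red, dashed), low-numbered peaks to any listed peak (red, solid) and higher-numbered peaks to any listed peak (grey). Medians are 15999 bp, 4289 bp and 3106 bp. The dashed curve has fewer peaks to choose from and lies to the right of the others.

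Genes that held low-numbered peaks were mostly protein-coding. Of 2705 genes on X, 180 (6.65%) held a low-numbered midpoint, and 412 (15.2%) held any listed one. The 180 comprised 172 protein-coding genes, 5 lncRNA genes and 3 antisense RNA genes. The 172 were 7.83% of the protein-coding genes on X. The median length of the 180 was 6396 bp, against 2063 bp for all genes on X. With 1 kb added on either side, 314 genes (11.6%) had a low-numbered midpoint inside or beside them. A uniform spread of peaks would also fall in long genes more often. The share of genes with a low-numbered peak was 0.829% among the 1327 genes of up to 2 kb, 8.5% among the 706 of over 2 and up to 5 kb, and 17.7% among the 277 of over 5 and up to 10 kb. It did not go on rising with length: it was 17.3% among the 185 of over 10 and up to 20 kb and 13.3% among the 210 longer ones. In 67 of the 180 genes (37.2%) there was also a higher-numbered peak. Of all other genes on X, 232 held a higher-numbered peak. The 180 genes are long and no background matched for length was computed, so the 37.2% is a description.

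Of the 180 genes, 158 held 1 low-numbered peak, 17 held 2 and 5 held 3, so none (0) reached the 4 set for naming, and the 5 genes below were named after their values were seen. In lncRNA:roX2, 1368 bp long, numbers 63, 67 and 19 followed each other at intervals of 630 and 571 bp, and no higher-numbered peak lay in the gene. The gene nej, which encodes the acetyltransferase CBP, held numbers 174, 139 and 69 in its 21625 bp, together with 3 higher-numbered peaks. Its peaks with the numbers 139 and 69 lay in the last 2 kb by coordinate and number 174 near the other end, 1201 bp from it. In rudhira, 20563 bp long, numbers 228 and 234 lay 811 bp apart near the lower-coordinate end, and number 65 lay 11935 bp from that end. In nocte, 12811 bp long, number 83 lay 1737 bp from the lower-coordinate end, and numbers 114 and 163 lay toward the other one. In Tao, a protein kinase gene of 10080 bp, number 210 lay 292 bp from the lower-coordinate end, and numbers 291 and 250 lay 8686 and 9369 bp from it. Neither nocte nor Tao held a higher-numbered peak. In nocte and Tao, as in nej, low-numbered peaks thus lay toward both ends of the gene, with the middle free of them. In rudhira, 1 of the 3 lay in the middle.

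**Figure D5:**
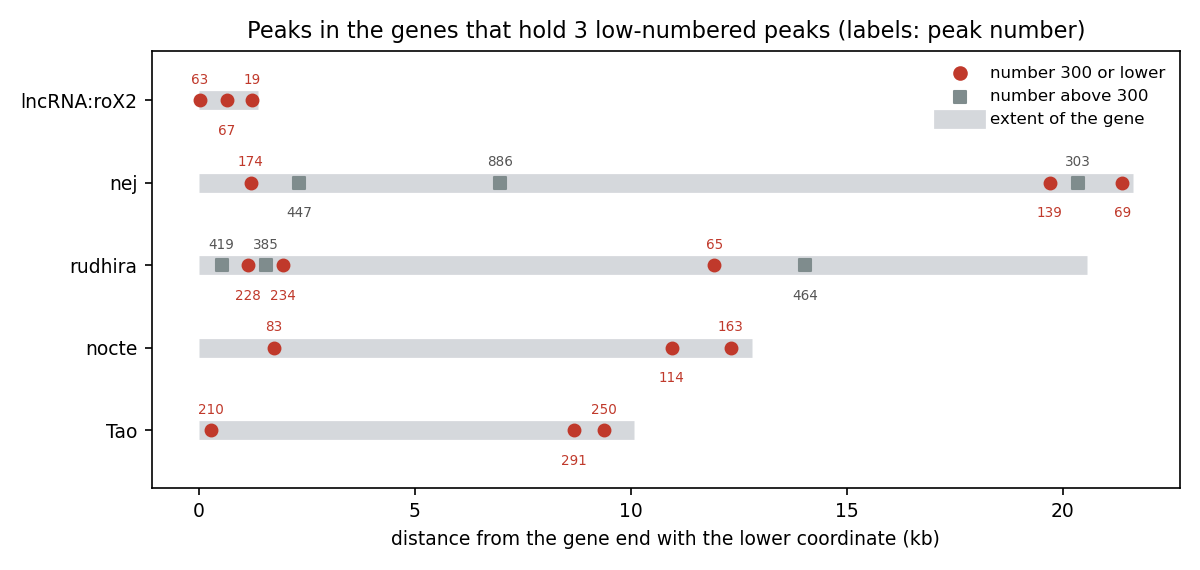
Positions of peak midpoints in the 5 genes that held 3 low-numbered peaks, as the distance from the gene end with the lower coordinate (kb), with low-numbered peaks as red circles, higher-numbered ones as grey squares and the peak number beside each. The map shows 3 red circles in each gene and, in nej and rudhira alone, 3 grey squares as well.

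Among the X-linked genes of the dosage compensation complex, lncRNA:roX1 held 1 low-numbered peak and lncRNA:roX2 held 3, as above. The gene mof, which encodes the acetyltransferase of the complex, held no listed peak, and the nearest low-numbered midpoint was 35473 bp from it. Higher-numbered peaks lay closer. The neighbouring gene Usp30, at chrX:5877000-5879787 just past the end of mof at chrX:5876853, held 2 of them.

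Several chromatin regulator genes held low-numbered peaks. Of 27 listed genes found on X, 8 (29.6%) held one, beside 6.65% of all genes on X. A further 6 held higher-numbered peaks alone and 13 held none. Of the 2705 genes on X, 232 held higher-numbered peaks alone and 15.2% held any listed peak. The 8 were crm, Smr, Nup153, sno, fs(1)h, nej, Hmt4-20 (number 100) and ph-d (number 155), a Polycomb group gene. Beside a gene, number 117 lay 249 bp from trr, with its midpoint inside Coa8, and number 79 lay 238 bp from Set2. Both trr and Set2 are histone methyltransferase genes. They brought the list to 10 genes (37.0%) with a low-numbered midpoint inside or within 1 kb, beside 11.6% of all genes on X. No share by length was computed for this wider window. Of the genes without a low-numbered peak, G9a, another histone methyltransferase gene, held 4 higher-numbered peaks, and HDAC4, a histone deacetylase gene, held 2. The genes Tip60, HP1b, mxc, Bap60 and CoRest held no listed peak. The median length of the list, 7560 bp, was above that of all genes on X, and the matching length class had a share of 17.7%. The list was written with earlier results of these data known, in which crm, Smr, nej and G9a were named, so its count is a description.

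Ribosomal protein genes with RpL or RpS symbols, which are short and strongly expressed in dividing cells, held none: 0 of 14 held a low-numbered peak. Their median length was 1603 bp. Of genes of up to 2 kb, 0.829% held a low-numbered peak, so a count of 0 is near that background. Higher-numbered peaks were absent from the 14 genes as well, whereas 15.2% of all genes on X held any listed peak. No share by length was computed for any listed peak, so that absence is a description. The nearest low-numbered midpoint lay 110 bp from RpL22, inside the neighbouring lncRNA:CR44965 (number 261), and 1368 bp from RpS6. For the other 12 genes of this list it was between 2380 and 68018 bp away. The list was drawn up by symbol and so leaves out sta, beside which number 38 lay at 155 bp.

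The share of developmental and neuronal genes with a low-numbered peak was near that of all genes on X. Of 35 listed genes, 3 (8.57%) held one, beside 6.65% of all genes on X. Their median length was 13992 bp. The length class of over 10 and up to 20 kb had a share of 17.3%, and the difference from it was not tested. The 3 were norpA, arm (number 59) and the potassium channel gene Sh (number 209). A further 5, elav, sgg, ct, rdgA and para, held higher-numbered peaks alone, between 1 and 2 each. Of the 2705 genes on X, 232 held higher-numbered peaks alone and 15.2% held any listed peak. The other 27 genes of the list held no listed peak. They include the proneural genes ac, sc, l(1)sc and ase, the pigment genes y and w and the sex-determination gene Sxl. The Notch gene N and the homeobox genes oc, B-H1 and B-H2 are also among them. Around ac, sc, l(1)sc and ase the nearest low-numbered midpoint was between 191194 and 283423 bp away.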

How the data were processed

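CUT&RUN libraries from S2 cells comprised 3 made with anti-MSL2 serum and 2 controls. Peaks were called by the authors with HOMER findPeaks in factor style, per the file headers, with 1 anti-MSL2 tag directory against 1 control directory. The thresholds were a 10-fold excess over the control and a 4-fold excess over the surrounding 10000 bp. Narrow sites are favoured, and sites in broad enrichment or high in the control are removed. The submitters' processing notes name dm6, Bowtie2 2.2.9, SAMtools 1.9 and HOMER 4.9. The deposited score is 1 for every peak and was not used. Intervals cover counting error alone.

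Positions were made 1-based and compared, by peak midpoint, with the 2705 X genes of a RefSeq gene table of Release 6, the assembly of dm6, with Python 3.11.15, pandas 2.3.3 and SciPy 1.17.1. Scripts were tested on simulated peaks. Low- and higher-numbered peaks were compared by two-sided Fisher's exact tests, with Benjamini-Hochberg adjustment over 3 shares and a threshold of 0.05. Peak sequences were not used here, so the planned GA-rich motif test was not run.

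The members, lists and tests were chosen with earlier results of these data known. Genes were named if they held or lay nearest to one of the 20 lowest-numbered peaks, held at least 4 low-numbered peaks, were roX1, roX2 or mof, or were members of the 3 lists with a low-numbered peak. Other names were chosen after values were seen, among them genes at the threshold, outside genes, far from gene ends, at long distances and in groups, and listed genes with no low-numbered peak.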

Additional observations from a re-analysis of the deposited data

How the results depend on the processing

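Among 22 alternative values, 15 left the result as it was: the same direction and call, a count within 1.5 times the reported one, or a median within the reported interval. The share inside a gene kept both under all 6 alternatives, between 84.3% and 93.1% in low-numbered peaks. Its difference from higher-numbered peaks ranged between 6.65 percentage points, with an overlap of 1 bp, and 16.5, with merged regions, against 14.8 as reported. The share near a gene end was below that of higher-numbered peaks under all 6 alternatives and no longer passed within 1000 bp (69.0%). The share with another listed peak close by no longer passed within 1 kb (18.1%), within 20 kb (88.4%) or with numbers up to 400 (61.0%). Fewer peaks, with numbers up to 200, gave 116 genes with a low-numbered peak in place of 180, and a median spacing of 88848 bp in place of 49163 bp. More peaks, with numbers up to 400, gave a spacing of 26034 bp. Merging regions within 5 kb gave a spacing of 72412 bp, equal to the upper limit of the reported interval, and was counted as unchanged. Taking the lowest-numbered peak of each merged region was chosen after seeing the data. The motif alternatives were not run. No paired analysis was possible because the deposited list has positions alone, without measurements by library. For that reason no library could be left out, and the variation of these peaks between libraries is unknown.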
